A study of Mus musculus with 144 samples.

Results

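The AP-1 and immediate early genes described here are Fos, Fosb, Jun, Junb, Jund, Egr1, Atf3, Klf6, Btg2 and Zfp36, chosen by gene name from 55364 genes measured in single retinal microglia of mice given ripasudil or PBS. The 10 genes were taken by name, with earlier results of these data known. Ripasudil is a small-molecule inhibitor of protein kinases. Cells were sorted singly from the retina of Iba1-EGFP mice, in which a fluorescent protein is made under the control of the promoter of Iba1 (gene Aif1), a gene of microglia and other macrophages. The 3 groups were 10 mg/kg ripasudil (mice aged 12 weeks), 1 mg/kg ripasudil (mice aged 14 weeks) and PBS (mice aged 10 to 14 weeks), with 48 cells each, spread evenly over 3 plates per group. The series title names optic nerve injury, but the labels of the cells give neither the state of the nerve nor the route or duration of treatment. They also name no animal, so each group counted as 1 sample, no p-value was computed, and age and treatment cannot be told apart.

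Immediate early genes are transcribed within minutes of a stimulus, without the need for new protein, by transcription factors that are already in the cell and are switched on by MAP kinase and cAMP signals. Several of them encode the Fos, Jun and ATF proteins, which pair through leucine zippers into AP-1 and bind AP-1 or cAMP response elements in DNA. Others encode inhibitors that end the response. In microglia these genes respond to injury and cytokines, and they are also known to be switched on while tissue is dissociated into single cells.

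Expression was given as FPKM, a count of fragments scaled to gene length and to the sequencing depth of the cell. Detection of a gene meant an FPKM no lower than 1, and all but 4 cells had at least 1000 detected genes and were kept, 140 in all, 47 at 10 mg/kg, 47 at 1 mg/kg and 46 with PBS. The reads assigned to genes, worked out from the FPKM values, were 30204 to 4668733 per kept cell, with a median of 1614850. The cells carried microglial markers: Csf1r was detected in 140 of 140 kept cells, Cx3cr1 in 134, Tmem119 in 124 and P2ry12 in 109. The median number of detected genes per cell was 2264 at 10 mg/kg, 2418 at 1 mg/kg and 3143 with PBS. At least 3 of 10 rod photoreceptor markers were detected in 11 of 47 cells at 10 mg/kg, 8 of 47 at 1 mg/kg and 6 of 46 with PBS; each of the 10 had a value above 0 in at least 1 cell of every group, and their summed FPKM was 0 to 16100, 0 to 4898 and 0 to 291 in the same order. At least 3 of 8 neutrophil markers were detected in 5, 5 and 4 cells. Of these 8, Elane and Camp were 0 in every kept cell, and Ly6g and Ngp were 0 in every kept cell at 10 mg/kg and with PBS.

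The promoters are shown first, since the 10 genes varied together from cell to cell. The RefSeq promoter table for GRCm38.p6 matched 9 of the 10 genes. The tabulated start was that of the deposited gene interval for Fos and Jun and differed from it for the others. The 250 bases before each tabulated start were searched on both strands for 8 motifs, and the shares below refer to the same window of 32851 promoters. The cAMP response element half-site TGACG was present in 5 of the 9 promoters, those of Fos, Fosb, Junb, Atf3 and Btg2, and in 17.8% of all promoters. The full element TGACGTCA, which contains that half-site on both strands, was present in the promoter of Btg2 and in 1.55% of all promoters. The element TGACATCA, first described in the JUN promoter, was present in those of Jun and Klf6 and in 2.93% of all promoters. The CArG box, the binding sequence of serum response factor, was present in that of Zfp36 and in 1.47% of all promoters. The AP-1 element TGANTCA was not found in these windows for any of the 9 genes and was present in 6.75% of all promoters. The EGR element GCGNGGGCG was present in those of Fosb, Btg2 and Zfp36 and in 4.7% of all promoters. The TATA box TATAAA was present in that of Fos and in 12.4%, and CCAAT in those of Jun, Junb, Klf6 and Btg2 and in 33.8%. These matches describe letters only and do not show that a factor binds there. Bases farther upstream were not searched, so a motif absent from a window may still lie outside it. The stretches below, written 5′ to 3′ along the gene's strand in GRCm38.p6, carry TGACG in capitals for Fos and Junb, TGACGTCA for Btg2, TGACATCA for Jun and the CArG box for Zfp36. They cover chr12:85473740-85473889 on the plus strand for Fos (bases -150 to -1), chr8:84978749-84978898 on the minus strand for Junb (-150 to -1), chr1:134079206-134079355 on the minus strand for Btg2 (-200 to -51), chr4:95052223-95052372 on the minus strand for Jun (-150 to -1) and chr7:28379267-28379296 on the minus strand for Zfp36 (-68 to -39). The last of these lies inside the deposited gene interval of Zfp36 and overlaps an annotated exon of it.
Fos: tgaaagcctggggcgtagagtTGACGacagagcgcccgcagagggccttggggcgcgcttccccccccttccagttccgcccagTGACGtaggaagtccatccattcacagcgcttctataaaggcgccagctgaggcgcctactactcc
Junb: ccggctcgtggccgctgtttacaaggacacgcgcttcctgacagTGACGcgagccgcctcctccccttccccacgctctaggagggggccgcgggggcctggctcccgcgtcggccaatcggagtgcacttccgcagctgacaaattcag
Btg2: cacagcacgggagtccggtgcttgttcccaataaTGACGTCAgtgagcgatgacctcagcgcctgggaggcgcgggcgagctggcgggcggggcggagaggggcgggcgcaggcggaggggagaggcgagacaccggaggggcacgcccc
Jun: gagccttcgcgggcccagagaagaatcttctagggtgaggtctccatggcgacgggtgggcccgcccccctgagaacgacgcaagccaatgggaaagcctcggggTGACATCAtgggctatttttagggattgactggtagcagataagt
Zfp36: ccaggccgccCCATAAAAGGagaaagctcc

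The values of these genes spread widely over cells. Of the 1400 values of the 10 genes in the kept cells, 171 were 0, 242 lay between 0 and 1, 365 from 1 to below 10, 185 from 10 to below 100, and 437 were at an FPKM of 100 or more. The values at 100 or more were 110 of 470 at 10 mg/kg, 161 of 470 at 1 mg/kg and 166 of 460 with PBS. For each gene the SD over cells was wide as a result, 1.84 to 4.46 on the log2(FPKM + 1) scale, and the ranges of the 3 groups overlapped for all 10 genes. In what follows a level is the mean of log2(FPKM + 1) over kept cells, and a difference is one such mean minus another, so that -1 stands for a level lower by a factor of 2 on that scale. This scale understates differences of genes that many cells lack.

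**Figure D1:**
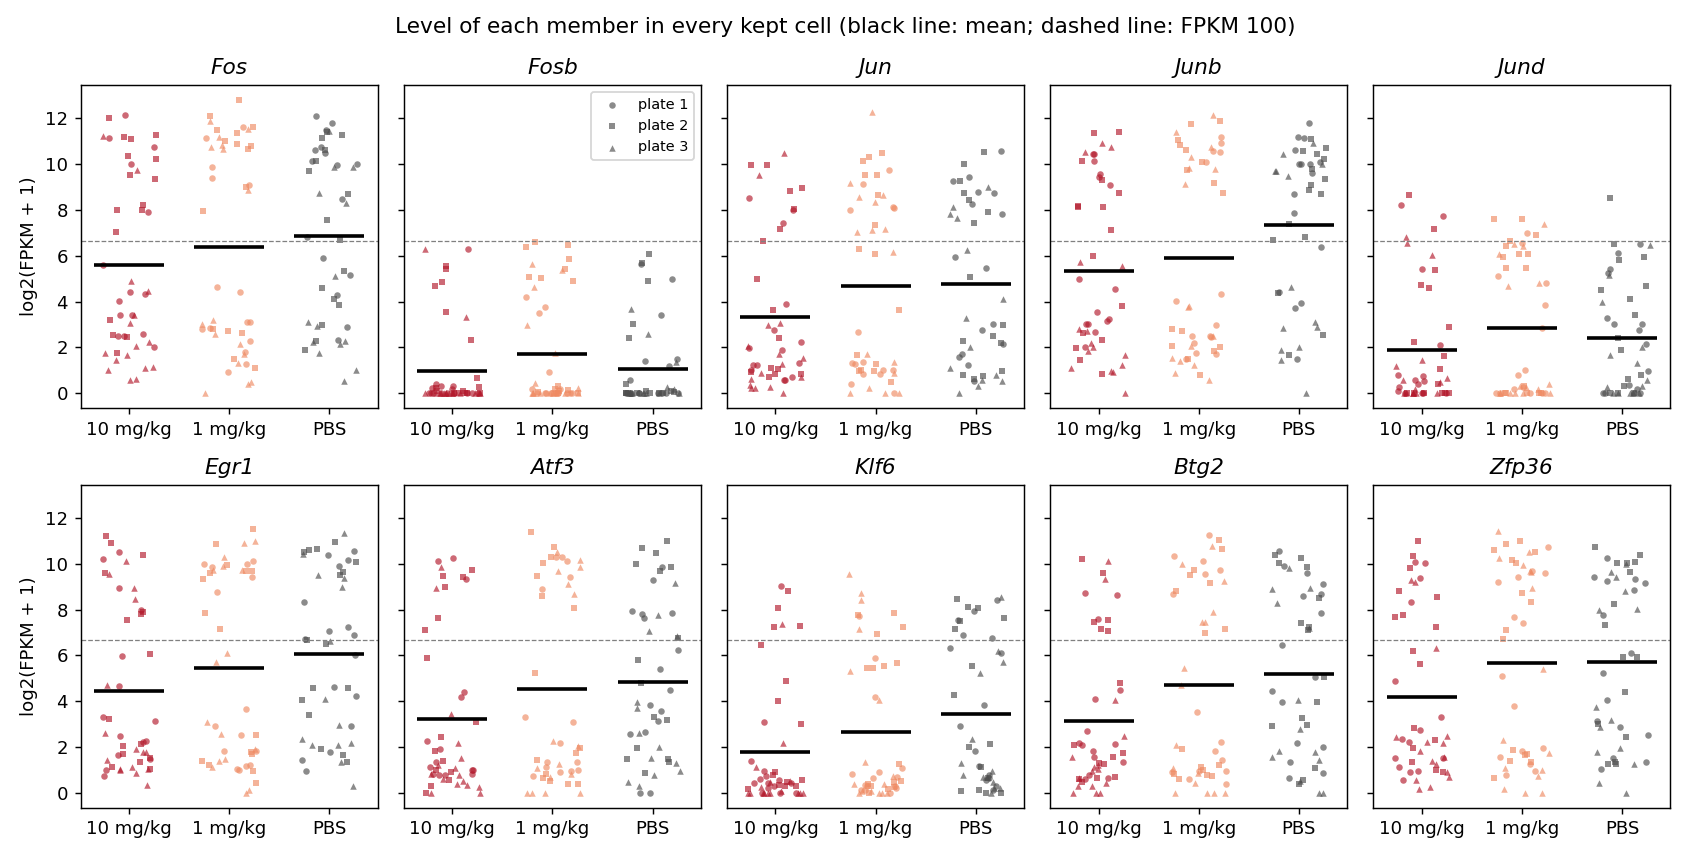
Level of each of the 10 genes in every kept cell, as log2(FPKM + 1), for 10 mg/kg (47 cells), 1 mg/kg (47 cells) and PBS (46 cells); each symbol is 1 cell, its shape gives the plate, the black line is the mean and the dashed line marks an FPKM of 100. Several genes, such as Fos and Egr1, show an upper and a lower cloud of cells, and the means at 10 mg/kg lie below those with PBS, from 0.96 against 1.08 for Fosb to 3.14 against 5.21 for Btg2.

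At 10 mg/kg all 10 genes had lower mean levels than with PBS, with differences from -2.07 for Btg2 to -0.12 for Fosb and a median of -1.59. A negative difference was also found for 81.4% of the 4806 genes compared, those that 25% or more of the kept cells detected in 1 or more groups, and their median was -0.43. A difference of -1 or lower was reached by 8 of the 10 genes, the exceptions being Fosb and Jund, and by 14.9% of all genes compared. With a term for detected genes and plate none of the 10 reached it, and as a log2 ratio of mean FPKM only Btg2 did (-1.25). For the term and the ratio, the share of all genes compared that reached it is not given here. The difference was below 0 on each of the 3 plates for 8 of the 10, the exceptions being Fos and Fosb, and for 41.1% of all genes compared. The median over the 10 genes was -2.01 on plate 1, -0.63 on plate 2 and -1.68 on plate 3, beside -0.45, -0.32 and -0.49 over all genes compared.

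The median difference between 10 mg/kg and PBS was smaller in size when the number of genes detected per cell was taken into account. That number was itself lower at 10 mg/kg, and the cause of this was not tested. With a linear term for detected genes and plate in the model, the median difference of the 10 genes was -0.28, beside -0.03 over all genes compared. Among cells with 1716 to 4957 detected genes, a range common to the 3 groups that held 29 cells at 10 mg/kg and 31 with PBS, it was -0.68. After each cell was thinned to 300000 reads it was -1.73, from 44 cells at 10 mg/kg and 41 with PBS. On the scale of mean FPKM, which the abundant cells dominate, the median log2 ratio of 10 mg/kg to PBS was -0.66, beside -0.05 over all genes compared. On that scale 2 of the 10 genes, Fosb and Jund, had the higher mean at 10 mg/kg, as did 47.9% of all genes compared. Without cells carrying 3 or more rod markers the median difference was -1.43.

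At 1 mg/kg the 10 genes had no direction in common: it turned with the plate and with the scale. The median difference from PBS was -0.40, beside -0.18 over all genes compared, and 8 of the 10 differences were below 0, all but those of Fosb and Jund, as were 64.7% over all genes compared. Only Junb, at -1.44, reached -1 or lower, which 5.7% of all genes compared did. None of the 10 was below 0 on every plate, against 24.3% of all genes compared. On plate 1 all 10 genes were lower than with PBS, with a median of -1.03, as were 59.3% of all genes compared (median -0.16). On plate 2, 5 of the 10 were lower, with a median of -0.22, as were 56% of all genes compared (median -0.10). On plate 3 all 10 were higher, with a median of 0.59, while 64.3% of all genes compared were lower (median -0.26). The mean FPKM was higher at 1 mg/kg for 9 of the 10 genes, all but Klf6, and for 52.8% of all genes compared. The median log2 ratio was 0.50 over the 10 genes, beside 0.06 over all genes compared. With the term for detected genes and plate the median difference was 0.54, beside 0.06 over all genes compared.

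Set against 1 mg/kg, the 10 mg/kg cells had lower levels of all 10 genes, with differences from -1.57 for Btg2 to -0.56 for Junb and a median of -0.97, beside -0.24 over all genes compared. A negative difference was found for 72% of all genes compared. A difference of -1 or lower was reached by 5 of the 10, Jun, Egr1, Atf3, Btg2 and Zfp36, and by 6.8% of all genes compared. The difference was below 0 on all plates for 8 of the 10, the exceptions being Fos and Junb, and for 27.8% of all genes compared. The medians were -0.48 on plate 1, -0.69 on plate 2 and -2.13 on plate 3. The log2 ratio of mean FPKM was below 0 for all 10 genes (median -0.92) and for 55.5% of all genes compared (median -0.11). With the term for detected genes and plate 9 of 10 differences were below 0 (median -0.58), Junb standing at 0.01, as were 61.1% over all genes compared (median -0.11), and 1 of the 10 reached -1. Without plate 3, 2 of the 10 reached -1 or lower, and without plate 1, 9 did. For the term and for the plates left out, the share of all genes compared that did so is not given here. The comparisons with PBS share the PBS cells and those with 10 mg/kg share its cells, so they are not independent of each other.

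**Figure D2:**
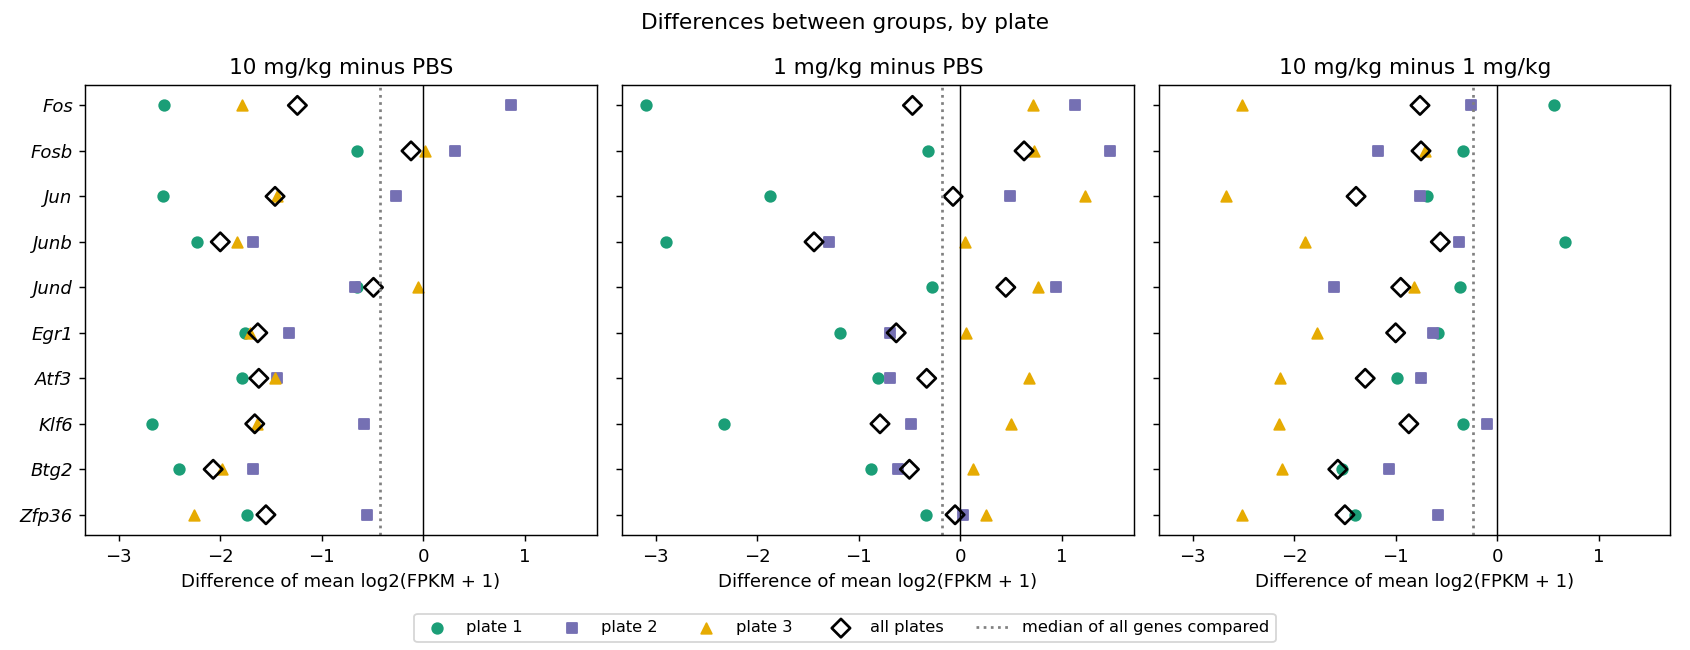
Differences of mean log2(FPKM + 1) for each gene in the 3 comparisons, within each plate (filled symbols) and over all plates (open diamonds); the dotted line is the median of the 4806 genes compared. At 10 mg/kg minus PBS the diamonds lie from -2.07 to -0.12; at 1 mg/kg minus PBS plate 3 lies above 0 for all 10 genes and plate 1 below 0 for all 10.

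Fos and Fosb encode the Fos partners of AP-1, which bind DNA only when paired with a Jun protein. The FPKM of Fos (chromosome 12, 85473890 to 85477273) was 0.509 to 4484 with a median of 19 at 10 mg/kg, 0 to 7197 with a median of 23.7 at 1 mg/kg, and 0.434 to 4410 with a median of 151 with PBS. Fos was above 0 in 139 of the 140 kept cells and abundant in a part of each group. Its mean level was 5.60 ± 3.88 at 10 mg/kg (SD over 47 cells), 6.37 ± 4.46 at 1 mg/kg (47 cells) and 6.84 ± 3.71 with PBS (46 cells). Its means differed more between plates than between groups, with values at 10 mg/kg of 5.78, 7.89 and 3.16 on plates 1, 2 and 3, and with PBS of 8.32, 7.01 and 4.95 on the same plates. The difference of 10 mg/kg from PBS was -1.24 over all plates but 0.87 on plate 2, so its direction was not the same on every plate. The share of cells with Fos at an FPKM of 100 or more was 40.4% at 10 mg/kg (exact Clopper-Pearson 95% interval 26.4 to 55.7), 48.9% at 1 mg/kg (34.1 to 63.9) and 54.3% with PBS (39 to 69.1). These intervals overlap, and like those below they treat cells as independent draws and do not cover differences between animals.

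Fosb (chromosome 7, 19302696 to 19310051) had the lowest level of the 10 genes. It was detected in 9 of 47 cells at 10 mg/kg, 16 of 47 at 1 mg/kg and 14 of 46 with PBS, and its highest FPKM was 78.2, 96.6 and 66.9 in the same order. No cell reached an FPKM of 100 for Fosb, although Fos reached it in 67 cells. The median cell was at 0 at 10 mg/kg and with PBS, and at 0.0889 at 1 mg/kg. The mean level was 0.96 ± 1.93, 1.71 ± 2.41 and 1.08 ± 1.84, so the 10 mg/kg and PBS cells stood close together and the 1 mg/kg cells above them, by less than the spread between cells. Of the 10 genes only Fosb and Jund were higher at 1 mg/kg than with PBS on the log scale, by 0.63 and 0.45.

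Jun, Junb and Jund encode the Jun proteins, of which c-Jun is a strong activator, JunB is a weaker one that can hold c-Jun back, and JunD is the form made in resting cells. Junb (chromosome 8, 84976910 to 84978718) had the highest mean log2 level of the 10 genes in PBS cells, with an FPKM of 0 to 3542 and a median of 503, against 0 to 2679 with a median of 13 at 10 mg/kg. At 1 mg/kg its FPKM was 0.51 to 4524 with a median of 13.1. The pooled median was thus low at either dose and high with PBS, but the plates differed: on plate 2 the median was 207 at 10 mg/kg, 507 at 1 mg/kg and 503 with PBS, and on plate 3 it was 3.26, 12.9 and 15.6. Junb reached an FPKM of 100 in 38.3% of cells at 10 mg/kg (24.5 to 53.6), 44.7% at 1 mg/kg (30.2 to 59.9) and 65.2% with PBS (49.8 to 78.6). Its difference from PBS was -2.00 at 10 mg/kg, with -2.23, -1.68 and -1.84 on plates 1, 2 and 3. At 1 mg/kg it was -1.44, with -2.90, -1.29 and 0.05 on the same plates. With the term for detected genes and plate these became -0.91 and -0.56.

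Jun (chromosome 4, 95049034 to 95052222) had an FPKM of 0 to 1423 with a median of 2.31 at 10 mg/kg, 0 to 4893 with a median of 11.3 at 1 mg/kg and 0 to 1518 with a median of 12.7 with PBS. The 10 mg/kg cells were low in the middle of their range, and the medians of the other groups were close to each other. Its mean level was 3.31 ± 3.36, 4.70 ± 3.97 and 4.77 ± 3.57, a difference of -1.46 between 10 mg/kg and PBS that was -2.56, -0.27 and -1.44 by plate. At 1 mg/kg the difference from PBS was -0.07, with -1.87, 0.49 and 1.23 on plates 1, 2 and 3. Jund (chromosome 8, 70698949 to 70700616) had an FPKM of 0 to 406 with a median of 0.436 at 10 mg/kg, 0 to 196 with a median of 0.761 at 1 mg/kg and 0 to 364 with a median of 2.42 with PBS. It was detected in 18, 23 and 25 cells, was at an FPKM of 10 or more in 11, 21 and 14, and at 100 or more in 5 (10.6%, 3.55 to 23.1), 5 (10.6%, 3.55 to 23.1) and 1 (2.17%, 0.055 to 11.5), with overlapping intervals. Its difference between 10 mg/kg and PBS was -0.49 on the log scale, while the log2 ratio of its mean FPKM was 0.44. Jun and Jund overlap genes on the opposite strand (Junos and Gm11175), whether strand was used in counting is not given in the sources used here, and 55.2% and 49.5% of their values above 0 were whole reads, so their levels may include or lack reads of those genes.

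Egr1 encodes a zinc finger factor of the early growth response family. Its FPKM was 0.267 to 2397 with a median of 4.65 at 10 mg/kg, 0 to 2968 with a median of 11.6 at 1 mg/kg and 0.228 to 2579 with a median of 93.6 with PBS. Detection did not set the groups apart, at 93.6%, 89.4% and 95.7% of cells, whereas the share at an FPKM of 100 or more was 31.9% (19.1 to 47.1), 44.7% (30.2 to 59.9) and 47.8% (32.9 to 63.1). Its difference between 10 mg/kg and PBS was even over plates, -1.76, -1.32 and -1.71 on plates 1, 2 and 3 and -1.63 over all. It was -0.32 with the term for detected genes and plate.

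Atf3 and Klf6 encode stress-induced transcription factors; Atf3 belongs to the ATF branch of the AP-1 family and represses inflammatory genes in macrophages, and Klf6 is a zinc finger factor of the Krüppel-like family. Atf3 (chromosome 1, 191170296 to 191218039) had an FPKM of 0 to 1219 with a median of 1.52 at 10 mg/kg, 0 to 2686 with a median of 3.14 at 1 mg/kg and 0 to 2027 with a median of 13.9 with PBS. Its difference between 10 mg/kg and PBS was -1.62, with -1.79, -1.44 and -1.46 by plate. Klf6 (chromosome 13, 5861482 to 5870394) had an FPKM of 0 to 531 with a median of 0.373 at 10 mg/kg, 0 to 743 with a median of 0.638 at 1 mg/kg and 0 to 374 with a median of 3.22 with PBS. Klf6 showed the widest gap in detection among the 10 genes, 29.8% of cells at 10 mg/kg (17.3 to 44.9), 42.6% at 1 mg/kg (28.3 to 57.8) and 60.9% with PBS (45.4 to 74.9). Cells with any Klf6 held a median of 4 reads of it, the fewest of the 10 genes, so these shares rest on shallow counts. Its difference between 10 mg/kg and PBS was -1.66 over all plates, and -0.91 with the term for detected genes and plate.

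Btg2 and Zfp36 encode proteins that bring messenger RNAs to decay: Btg2 recruits the deadenylase complex and restrains proliferation, and Zfp36 (tristetraprolin) binds AU-rich messages such as that of TNF. Btg2 (chromosome 1, 134075170 to 134079120) had an FPKM of 0 to 1188 with a median of 1.98 at 10 mg/kg, 0 to 2413 with a median of 3.68 at 1 mg/kg and 0 to 1489 with a median of 26.5 with PBS. It had the most negative difference of the 10 genes between 10 mg/kg and PBS, -2.07, with -2.41, -1.68 and -1.98 by plate, and its mean FPKM was 117 at 10 mg/kg, 373 at 1 mg/kg and 278 with PBS. Its ratio of mean FPKM between 10 mg/kg and PBS was 0.422, the lowest of the 10. Zfp36 (chromosome 7, 28376784 to 28380253) had an FPKM of 0.115 to 2052 with a median of 4.07 at 10 mg/kg, 0 to 2803 with a median of 106 at 1 mg/kg and 0 to 1683 with a median of 60.2 with PBS. The pooled median was thus lowest at 10 mg/kg, but on plate 2 it was 112 at 10 mg/kg against 110 with PBS, and on plate 1 it was 33.2 at 1 mg/kg against 52.1 with PBS. Zfp36 differed by -1.55 between 10 mg/kg and PBS (-1.74, -0.55 and -2.26 by plate) and by -0.05 between 1 mg/kg and PBS. Zfp36 overlaps Gm44710 on the opposite strand.

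In PBS cells the order of mean levels, per kilobase of gene, was Junb (7.35), Fos (6.84), Egr1 (6.08), Zfp36 (5.72), Btg2 (5.21), Atf3 (4.86), Jun (4.77), Klf6 (3.45), Jund (2.40) and Fosb (1.08). At 10 mg/kg Fos (5.60) stood before Junb (5.35), and Klf6 (1.79) came after Jund (1.91). At 1 mg/kg Fos (6.37), Junb (5.91) and Zfp36 (5.67) led. Neighbours in these orders were apart by less than 1 SD between cells.

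Shares of cells were read at a low and a high threshold. For detection, the median difference in share between 10 mg/kg and PBS was -13 percentage points over the 10 genes, close to -11.2 over all genes compared. At an FPKM of 100 or more it was -14.8 points, beside 0 over all genes compared. The share at that threshold was lower at 10 mg/kg for 8 of the 10 genes and for 49.2% of all genes compared. Between 1 mg/kg and PBS the medians were -6.11 points for detection and -0.463 at 100, beside -6.38 and 0 over all genes compared. Between 10 mg/kg and 1 mg/kg they were -4.26 and -10.6, beside -4.26 and 0. The threshold of 100 was chosen after the values had been seen. The genes compared were not matched to the 10 in level. A gene that no cell holds at 100, such as Fosb, has a difference of 0 there and does not count as lower. At 100 the values over all genes compared therefore depend on level and are not a like comparison for the 10.

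High values of several genes were often found in the same cell, Fosb apart, which reached an FPKM of 100 in none. Of the 140 kept cells, 57 held none of them at an FPKM of 100 or more, 52 held at least 5, and 31 held 1 to 4. Every one of the 46 cells with Atf3 at that level also had Junb and Egr1 there, and 47 of the 49 cells with Jun had Fos, which is 70.1% of the 67 cells with Fos. All 27 cells with Klf6 at that level had Junb, which is 39.1% of the 69 cells with Junb. Such overlaps were not counted for other genes. Whether the 10 genes share cells at that level more than other genes as abundant is therefore not known from these counts. Cells with at least 5 of the 10 genes at that level were 14 of 47 at 10 mg/kg (29.8%, 17.3 to 44.9), 20 of 47 at 1 mg/kg (42.6%, 28.3 to 57.8) and 18 of 46 with PBS (39.1%, 25.1 to 54.6), with overlapping intervals. By plate they were 4, 8 and 2 at 10 mg/kg, 5, 8 and 7 at 1 mg/kg, and 7, 7 and 4 with PBS. Cells with none were 23 at 10 mg/kg, 19 at 1 mg/kg and 15 with PBS.

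**Figure D3:**
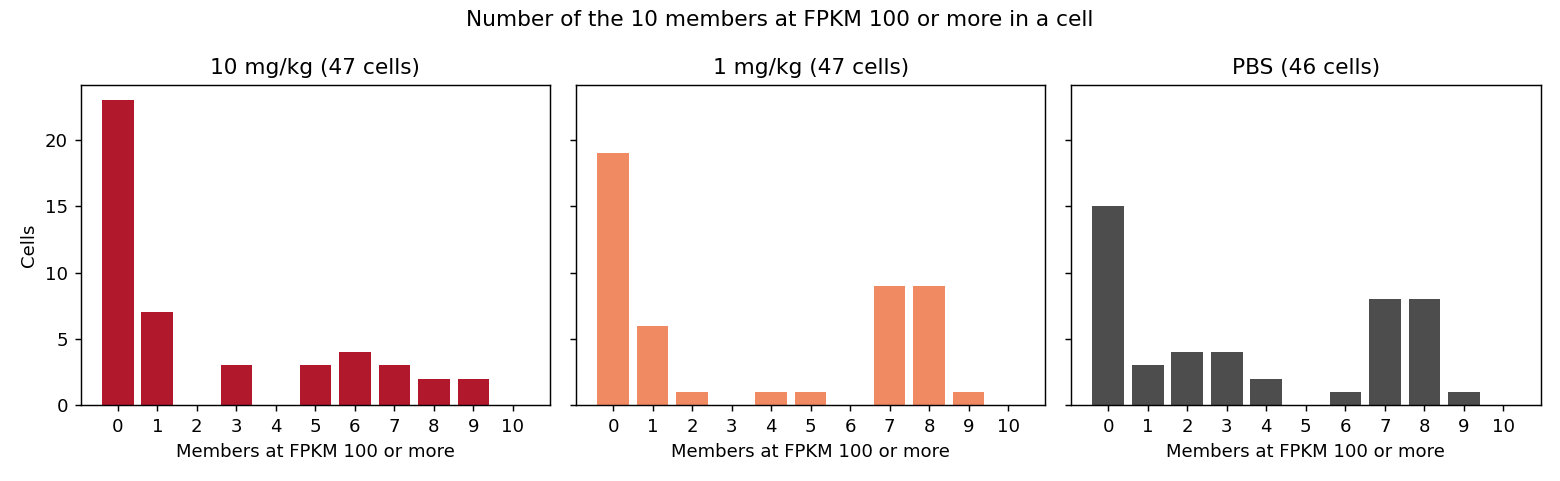
Number of cells (vertical axis) by how many of the 10 genes were at an FPKM of 100 or more in the cell (horizontal axis), for 10 mg/kg, 1 mg/kg and PBS. Cells with none form the tallest bar in each group (23, 19 and 15 cells), and a further group of cells held 5 to 9.

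Cells rich in these genes were also cells with many detected genes. The cells with at least 5 of the genes at an FPKM of 100 or more had a median of 3415.5 detected genes at 10 mg/kg, 4554 at 1 mg/kg and 5079.5 with PBS. The cells with none had medians of 1806, 1595 and 2091 in the same order. Over the 140 cells, Spearman's rho of a gene's level with the number of detected genes was 0.48 (Klf6) to 0.67 (Egr1), whereas with assigned reads it was -0.03 (Klf6) to 0.24 (Fosb). The cause of this relation was not tested. At least 3 rod markers were detected in 7 of the 52 cells with at least 5 of the genes and in 9 of the 57 cells with none.

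**Figure D4:**
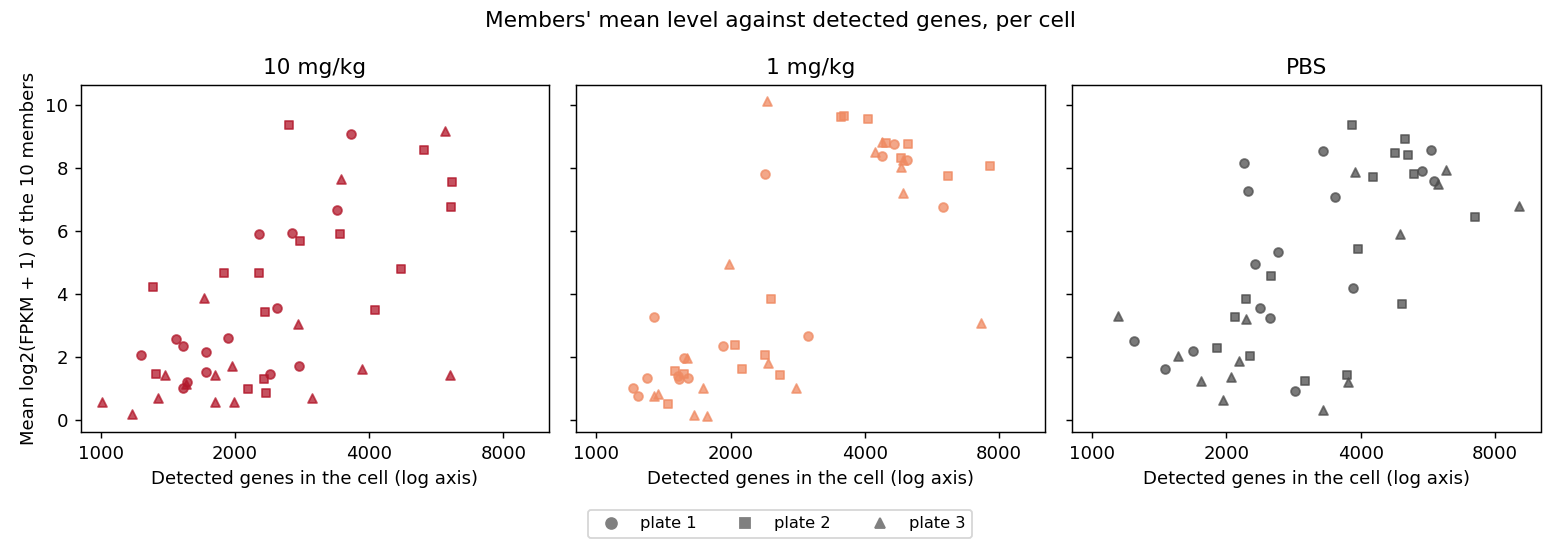
Mean log2(FPKM + 1) over the 10 genes in each kept cell (vertical axis) against the number of genes detected in that cell (horizontal log axis), by group; symbols give the plate. In each group the cells with the highest means lie to the right, and at 1 mg/kg an upper and a lower cloud of cells are seen with few cells between them.

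Across cells the levels varied together. The median Spearman rho over the 45 pairs was 0.59 at 10 mg/kg (47 cells), 0.75 at 1 mg/kg (47 cells) and 0.71 with PBS (46 cells), beside 0.10, 0.10 and 0.16 over all pairs of the genes compared. After plate means and a linear term for detected genes were removed, the medians were 0.54, 0.61 and 0.65, beside 0.04, 0.05 and 0.04. Over all 140 cells, the closest pair was Egr1 and Zfp36, with a rho of 0.87 as measured and 0.79 with group, plate and detected genes removed. The least close pair was Jund and Klf6 as measured (0.49) and Fos and Fosb after the removal (0.37). Fosb had the lowest median rho with the other 9 genes (0.57 as measured, 0.42 after removal), and Egr1 the highest after removal (0.71). These are descriptions over cells that share plates and sequencing depth, and cells of a group are not replicates.

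**Figure D5:**
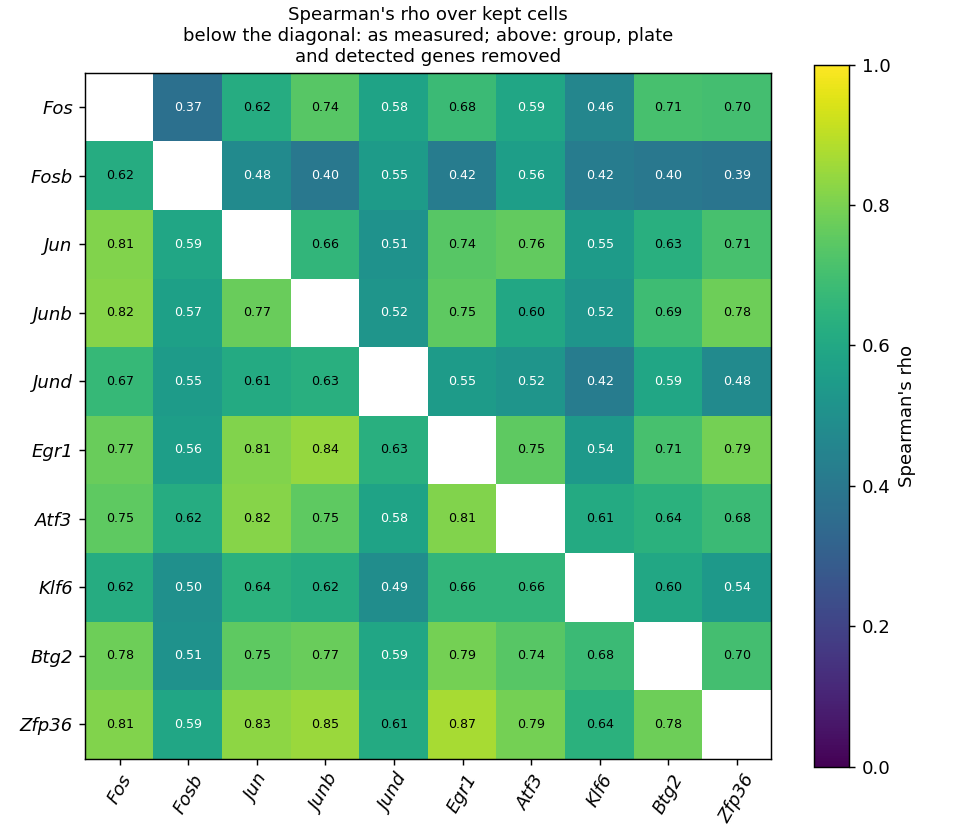
Spearman's rho over the 140 kept cells for each pair of the 10 genes, as measured (below the diagonal) and after removal of group, plate and detected genes (above it); colour runs from 0 to 1. Values run from 0.49 to 0.87 below the diagonal and from 0.37 to 0.79 above it, the lowest being that of Fos and Fosb.

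The genes most like the 10 were found by the rho, over 140 cells, of each other gene compared with the mean level of the 10 in the cell, after removal of group, plate and detected genes. The 8 closest were Ier2 (0.79), Nfkbiz (0.79), Dusp1 (0.75), Socs3 (0.71), Ier5 (0.69), Klf2 (0.68), Ppp1r15a (0.66) and Nfkbia (0.65), out of 4796 genes searched. Nfkbiz and Nfkbia encode nuclear and cytoplasmic inhibitors of NF-kappa-B proteins, Dusp1 a phosphatase of MAP kinases and Socs3 an inhibitor of cytokine signalling. Between 10 mg/kg and PBS all 8 were lower, by differences from -2.01 (Nfkbia) to -0.56 (Klf2), as were 81.4% of all genes compared. Between 1 mg/kg and PBS they ran from -1.15 (Nfkbia) to 0.45 (Klf2), and between 10 mg/kg and 1 mg/kg from -1.72 (Nfkbiz) to -0.60 (Ier2).

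The other genes of the pathway were read from 6 lists, each limited to genes detected in at least 10% of kept cells. Of the 8242 genes that passed the same filter, 78.9% were lower at 10 mg/kg than with PBS and 8.98% lower by 1 or more, with a median difference of -0.29, or -0.01 with the term for detected genes and plate; the lists are set beside these values. Among 23 other immediate early genes, all 23 were lower at 10 mg/kg than with PBS, 8 of them by 1 or more on the log2 scale, with a median difference of -0.69; the lowest were Btg1 (-1.76), a relative of Btg2, and Ier3 (-1.54). Among 10 feedback inhibitors 9 were lower, 5 by 1 or more, with a median of -0.88; Nfkbia (-2.01) and Nfkbiz (-1.78) led, and Tnfaip3, an inhibitor of NF-kappa-B signalling, stood at 0.12. Among 6 other AP-1 partners all 6 were lower, 1 by 1 or more (Atf4, -1.14), with Batf3 at -0.75 and a median of -0.33. With the term for detected genes and plate these 3 medians were -0.06, -0.31 and -0.14.

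Among 16 upstream kinases and factors, 15 were lower at 10 mg/kg than with PBS, beside 78.9% of the 8242 genes, and 3 by 1 or more, beside 8.98%, with a median of -0.51. The lowest was Rps6ka1 (-1.98), which encodes a ribosomal S6 kinase, and Map2k4 stood at 0.02. Among 11 AU-rich messages known as Zfp36 targets, 10 were lower and 6 by 1 or more, with a median of -1.02, led by the chemokine Ccl2 (-1.71) and by Ier3. The heat shock genes that tissue dissociation is known to raise were mixed: of 11, 7 were lower and 1 by 1 or more, with a median of -0.32, Hsp90aa1 (-1.11) and Hspd1 (-0.99) being lowest and Hspa8 (0.47) and Hsp90ab1 (0.45) highest. With the term for detected genes and plate these medians were -0.21 for the kinases, -0.12 for the Zfp36 targets and -0.11 for the heat shock genes. How much of the level of the 10 genes arose during dissociation was not tested.

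At 1 mg/kg against PBS these lists had medians of -0.23 for the other immediate early genes, -0.09 for the feedback inhibitors, 0.08 for the AP-1 partners, -0.35 for the upstream kinases, -0.44 for the Zfp36 targets and -0.08 for the heat shock genes, beside -0.11 over the 8242 genes. With the term for detected genes and plate they were 0.18, 0.41, 0.40, -0.17, 0.03 and 0.09 in the same order, beside 0.06. Between 10 mg/kg and 1 mg/kg the other immediate early genes (-0.73, 21 of 23 lower) and the feedback inhibitors (-0.77, 9 of 10 lower) stood below the median over the 8242 genes, -0.17, of which 69.7% were lower. The upstream kinases (-0.21) and the Zfp36 targets (-0.17) were near it. With the term, the medians of these 4 lists were -0.33, -0.35, -0.02 and -0.05 in the order named, beside -0.07 over the 8242 genes. Ccl2 was lower than with PBS at both doses, at -1.71 for 10 mg/kg and -2.44 for 1 mg/kg, while Dusp1 was at -1.27 for 10 mg/kg and 0.21 for 1 mg/kg.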

How the data were processed

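The authors deposited FPKM values per gene and cell, with a gene length. The build was GRCm38.p6 (mm10), with STAR 2.7.2b and featureCounts 1.6.1 named beside cutadapt 1.16, Trimmomatic 0.36 and Trim Galore 0.4.4, per the submitters' processing notes; their settings are not given in the sources used here. Amplified cDNA of each lysed cell was tagmented into a library, per the labels' protocols. No molecular identifiers are named. The intervals treat the cells of a group as independent draws and do not cover differences between animals or plates.

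FPKM times gene length summed to a constant in each cell, and the most frequent positive value was taken as 1 read. A median of 53.1% of values above 0 were whole reads within 0.01 read, so no count model was used. Of all cells 140 passed a minimum of 1000 detected genes (FPKM no lower than 1) and 4 did not. Levels were means of log2(FPKM + 1), with a pseudocount of 1. Shares carry exact Clopper-Pearson 95% intervals. For the term for detected genes, levels were fitted by least squares on group, plate and log2 detected genes. With no animal named, no p-value was computed. The members, lists and rules were chosen with earlier results of these data known. All 10 members were named, the 8 genes most like them, and from each of the 6 lists the 2 measured genes with the largest difference in each direction between 10 mg/kg and PBS; some single genes are not reported here. Dusp1 at both doses was set beside Ccl2 after the values were seen. Gene positions are those of the deposited table. The calculation was tested on simulated data and used Python 3.11.15, numpy 2.4.6, pandas 2.3.3, scipy 1.17.1 and matplotlib 3.10.9.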

Additional observations from a re-analysis of the deposited data

How the results depend on the processing

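The median difference of the 10 genes between 10 mg/kg and PBS, -1.59, stayed below 0 under all 14 alternatives run. It was -0.66 among cells with at least 2000 detected genes, -0.68 in the common range of detected genes, -0.66 as a log2 ratio of mean FPKM and -0.28 with the term for detected genes. Without plates 1, 2 and 3 in turn it was -1.31, -2.06 and -1.45. The median difference between 1 mg/kg and PBS, -0.40, changed sign in 5 of 14: it was 1.36 with at least 2000 detected genes, 1.54 in the common range, 0.03 without plate 1, 0.50 as a ratio of mean FPKM and 0.54 with the term for detected genes. Junb, the only gene called there (-1.44), was 0.38 with at least 2000 detected genes, 0.90 in the common range and 0.10 as a ratio of mean FPKM. Between 10 mg/kg and 1 mg/kg the median, -0.97, was below 0 throughout and reached -2.12 in the common range. Detected genes still differed in that range. Their median was 2393 at 10 mg/kg (29 cells), 2896 at 1 mg/kg (26 cells) and 2615 with PBS (31 cells). The cause of these shifts was not tested. Over single genes the sign differed from the main value in 7, 38 and 3 of 140 values in the 3 comparisons.

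The median difference in shares of cells between 10 mg/kg and PBS, -13 points, was -1.02 at an FPKM above 0 and -23.5 at 10 or more. Between 1 mg/kg and PBS, -6.11 became -0.463 at 100 or more, a threshold added after the data were seen. Between 10 mg/kg and 1 mg/kg, -4.26 became 2.13 above 0, -16 at 10 or more and -10.6 at 100 or more. The middle one of the 3 group medians of rho was 0.71, that with PBS. With plate means and detected genes removed it was 0.61, that at 1 mg/kg, while PBS stood at 0.65. Over all 140 cells the median rho of pairs was 0.67, and 0.59 with group, plate and detected genes removed. With the 3 plates weighted equally the median differences were -1.54, -0.35 and -0.96. Depth limits the shares of Klf6, which rest on a median of 4 reads where it was above 0.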
